A study of Homo sapiens with 16 samples.

Results

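The 10 genes described here, LOX, TGFBR2, PHLDA1, CD44, FOXO1, ANXA1, DKK1, TNC, ZYX and SPARC, are genes reported to be held down by the EWSR1-FLI1 fusion protein of Ewing sarcoma. They were chosen with earlier results of these data known and taken by gene symbol. They make up 10 of the 39249 genes in the deposited tables, and each symbol matched 1 row. Poly(A) RNA was sequenced from A673, an Ewing sarcoma cell line that carries the fusion, and from 3 lines derived from it by knockout of MRPL45, CYC1 or UQCRFS1, each a single clone per the series title. MRPL45 encodes a mitochondrial ribosomal protein, and CYC1 and UQCRFS1 encode subunits of respiratory complex III. All 4 lines received fresh medium with either DMSO at 0.1%, the solvent control, or SP-2509 at 500 nM, a small molecule that inhibits LSD1, the histone demethylase encoded by KDM1A, and were collected after 48 h. Line and treatment together define 8 groups of 2 replicate libraries, 16 in all, and every line, the controls included, carries the fusion. Because each knockout is 1 clone, the knockout and other differences between clones cannot be told apart, and p-values measure the spread between libraries, which may be technical.

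EWSR1-FLI1 joins the activation part of EWSR1 to the DNA-binding part of the ETS factor FLI1, which recognises GGAA motifs. Where these motifs are repeated as microsatellites, the fusion can open distant enhancers. The fusion also silences genes, many of them genes of mesenchymal and adherent cells, and LSD1 with the NuRD complex is one of the co-repressors tied to that silencing. The genes described here act in the extracellular matrix (LOX, TNC, SPARC), at the cell surface (CD44, TGFBR2), as a secreted Wnt inhibitor (DKK1) or inside the cell (PHLDA1, ANXA1, ZYX, FOXO1).

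Promoter windows of 300 bases around an annotated start were available for all 10 genes from RefSeq on GRCh38.p14, a newer build than the hg19 named for the counts. Only the first listed start of each gene was used, although LOX had 3 listed starts and TGFBR2 had 2. Those of CD44, DKK1 and PHLDA1 are shown because these genes had the largest rises with SP-2509 in A673, that of TNC because it holds a tandem GGAAGGAA, and that of SPARC because its level was not called changed in A673. They lie at chr11:35138921-35139220 (plus strand), chr10:52314031-52314330 (plus strand), chr12:76031727-76032026 (minus strand), chr9:115118108-115118407 (minus strand) and chr5:151686866-151687165 (minus strand). Each is written from 5′ to 3′ on the strand of its gene, and capitals mark GGAA and its reverse complement TTCC.
CD44: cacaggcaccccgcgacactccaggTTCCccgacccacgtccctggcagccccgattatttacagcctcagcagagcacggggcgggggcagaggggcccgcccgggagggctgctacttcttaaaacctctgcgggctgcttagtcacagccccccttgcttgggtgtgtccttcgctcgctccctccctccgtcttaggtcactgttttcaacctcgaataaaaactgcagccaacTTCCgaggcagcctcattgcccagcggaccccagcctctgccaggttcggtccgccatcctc
DKK1: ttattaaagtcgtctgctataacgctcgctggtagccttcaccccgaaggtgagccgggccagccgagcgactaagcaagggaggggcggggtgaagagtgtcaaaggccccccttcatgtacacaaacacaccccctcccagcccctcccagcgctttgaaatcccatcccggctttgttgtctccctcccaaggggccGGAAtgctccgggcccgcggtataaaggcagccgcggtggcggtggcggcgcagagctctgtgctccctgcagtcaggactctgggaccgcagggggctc
PHLDA1: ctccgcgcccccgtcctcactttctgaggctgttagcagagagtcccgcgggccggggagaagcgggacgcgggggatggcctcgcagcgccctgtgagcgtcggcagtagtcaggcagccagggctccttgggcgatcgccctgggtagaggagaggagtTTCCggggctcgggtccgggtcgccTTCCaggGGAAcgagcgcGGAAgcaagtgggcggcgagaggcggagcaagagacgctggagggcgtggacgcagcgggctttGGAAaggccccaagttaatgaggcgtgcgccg
TNC: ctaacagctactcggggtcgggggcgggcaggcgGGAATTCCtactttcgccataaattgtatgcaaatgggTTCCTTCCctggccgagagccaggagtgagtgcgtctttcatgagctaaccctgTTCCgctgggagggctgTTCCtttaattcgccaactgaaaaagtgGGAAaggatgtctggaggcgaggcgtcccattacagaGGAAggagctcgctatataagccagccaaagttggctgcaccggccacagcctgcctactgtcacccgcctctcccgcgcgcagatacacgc
SPARC: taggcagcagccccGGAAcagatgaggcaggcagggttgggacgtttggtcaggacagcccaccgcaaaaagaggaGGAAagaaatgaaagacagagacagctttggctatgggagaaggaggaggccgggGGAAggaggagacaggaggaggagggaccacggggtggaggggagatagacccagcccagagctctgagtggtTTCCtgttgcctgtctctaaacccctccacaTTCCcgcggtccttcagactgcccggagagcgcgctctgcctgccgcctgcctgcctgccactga
GGAA was counted on both strands. It occurred in all 10 windows, with 2 matches for CD44, 1 for DKK1, 5 for PHLDA1, 8 for TNC and 5 for SPARC, but also in 95.5% of 27305 RefSeq promoter windows of the same length, where the median was 3 matches. The tandem GGAAGGAA, whose letters contain GGAA, occurred in 1 of the 10 windows against 3.58% of all windows. The AP-1 motif TGACTCA was in 0 of the 10 windows and in 4.92% of all windows. The number of GGAA matches did not set the genes that rose most apart from SPARC, and a match is a description of these letters only.

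Total counts per library ranged from 24873597 to 56171036. The knockout labels could be checked for 2 of the 3 targeted genes: CYC1 lay between 71.1 and 82.2 CPM (counts relative to a library's TMM-scaled total) in the 4 libraries of its knockout line and at 258 CPM or more elsewhere, and UQCRFS1 lay between 58.6 and 88.2 CPM in its own knockout line and at 88.6 CPM or more elsewhere. MRPL45 itself was not analysed here. All 8 Ewing sarcoma markers examined were present in every library, at 24.5 CPM or more each. Of 7 markers of blood, endothelial and epithelial cells, 5 symbols matched a row, and none exceeded 0.45 CPM in any library. Reads of the fusion transcript and of the normal EWSR1 and FLI1 genes cannot be told apart in these counts. KDM1A was not called changed by SP-2509 in any of the 4 lines, but its DMSO level differed from that of A673 by a log2 fold change of -0.94 ± 0.06 (SE) in the MRPL45 knockout line, -0.57 ± 0.06 for CYC1 knockout and 0.15 ± 0.06 for UQCRFS1 knockout. EWSR1 and FLI1 were also lower than in A673 with DMSO in the MRPL45 knockout line, by log2 fold changes of -0.53 ± 0.06 and -0.27 ± 0.06, and in the UQCRFS1 knockout line, at -0.16 ± 0.06 and -0.22 ± 0.06. FLI1 was higher in the CYC1 knockout line, at 0.25 ± 0.06. With SP-2509, FLI1 was called higher in A673 (0.28 ± 0.06) and the UQCRFS1 knockout line (0.22 ± 0.06). EWSR1 was called higher in the UQCRFS1 knockout line (0.14 ± 0.06) and lower in the CYC1 knockout line (-0.17 ± 0.06). The part of these differences in the results that follow was not tested.

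In A673 with DMSO the 10 genes spanned a wide range of levels. Per kilobase of exons, the mean level was highest for SPARC, ANXA1, TNC and ZYX, at 82.4, 59.5, 38.1 and 28.2 CPM per kb. TGFBR2 reached 10.3 and LOX 3.06 CPM per kb. FOXO1 stood at 1.28, PHLDA1 at 0.491, DKK1 at 0.348 and CD44 at 0.0459 CPM per kb. So several of these genes were well expressed in A673 without the inhibitor. All further levels are CPM without length scaling, each pair of values giving replicate 1 and then replicate 2. Fold changes are log2 values ± SE from 1 edgeR quasi-likelihood fit over 21633 genes, which all 10 genes entered, and a gene is called where its Benjamini-Hochberg adjusted p over all tested genes is under 0.05. These are bulk samples, so a change in the share of cells that express a gene and a change in RNA per cell cannot be told apart.

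**Figure D1:**
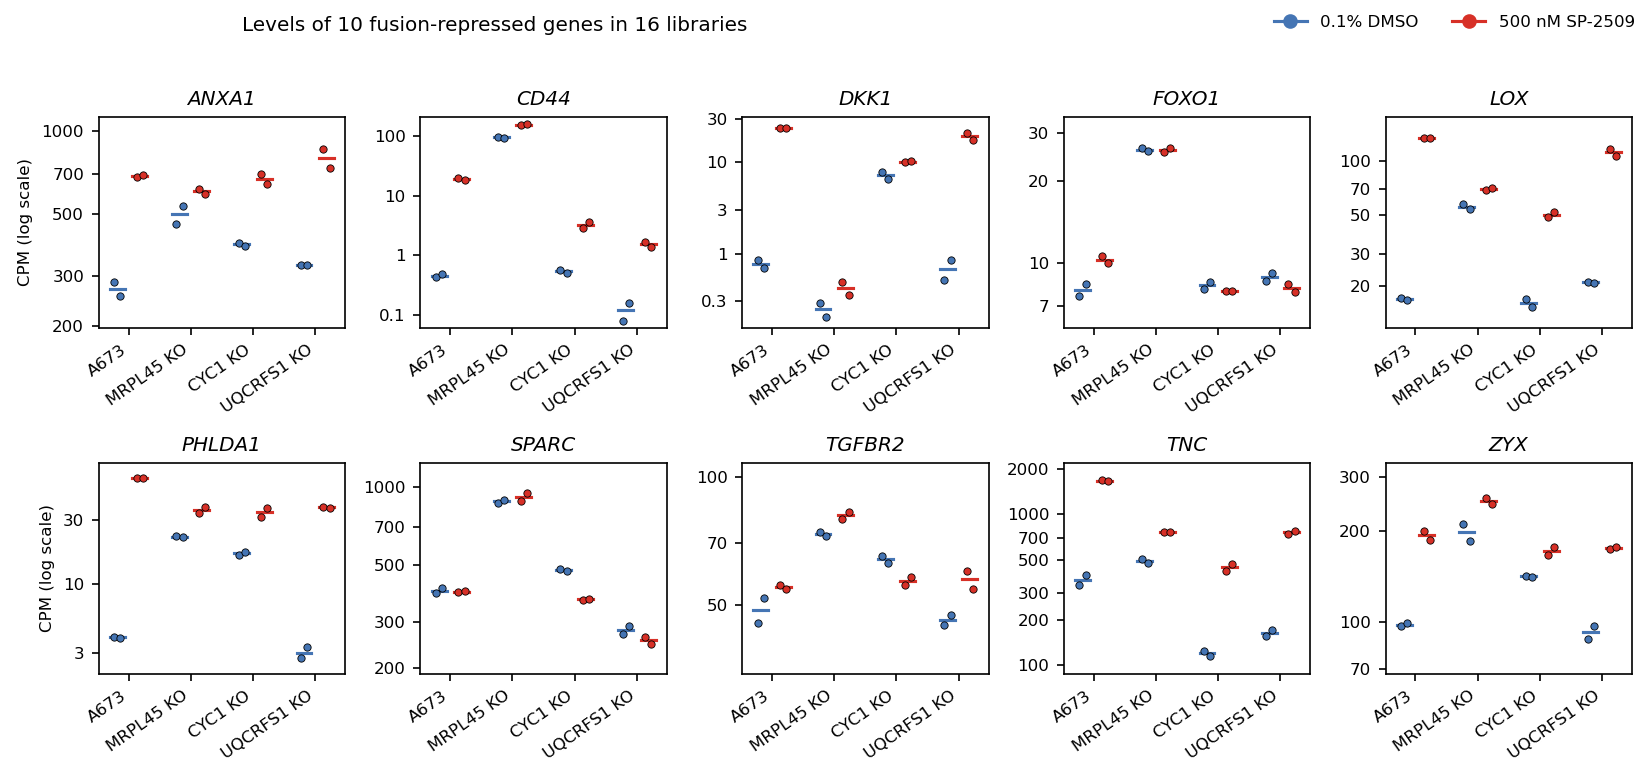
Level of each of the 10 genes in CPM on a log axis, by line, with DMSO in blue and SP-2509 in red; points are the 2 replicate libraries and bars their mean. LOX, PHLDA1, DKK1 and TNC are higher with SP-2509 than with DMSO in A673 and the UQCRFS1 knockout line, CD44 stands at 92.9 CPM or more in the MRPL45 knockout line, and SPARC differs by line more than by treatment.

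LOX, a secreted amine oxidase that cross-links collagen and elastin, rose with SP-2509 in all 4 lines, and the rise was much smaller in the MRPL45 knockout line than in A673. With DMSO its replicates were at 17.2 and 16.7 CPM in A673, 57.5 and 53.9 in the MRPL45 knockout line, 17.0 and 15.2 in the CYC1 knockout clone and 21.1 and 20.8 in the UQCRFS1 knockout line. With SP-2509 they were at 136 and 135 CPM in A673, 69.0 and 70.7 in the MRPL45 knockout line, 48.5 and 51.9 in the CYC1 knockout clone and 117 and 107 in the UQCRFS1 knockout line. The treated and control libraries did not overlap in any line. The log2 fold change with SP-2509 was 3.0 ± 0.07 in A673 (adjusted p = 1.61e-20), 2.42 ± 0.07 in the UQCRFS1 knockout line (3.06e-19), 1.64 ± 0.07 in the CYC1 knockout clone (6.48e-15) and 0.33 ± 0.06 in the MRPL45 knockout line (0.00063). The MRPL45 knockout line started higher, at 1.72 ± 0.07 above A673 with DMSO, and ended lower, at -0.96 ± 0.06 with SP-2509. Over the 8 group means the order ran from A673 with SP-2509 at the top to the CYC1 knockout line with DMSO at the bottom, and only the lowest neighbours, A673 and the CYC1 knockout line with DMSO, had overlapping replicates.

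TNC, which encodes the matrix glycoprotein tenascin-C, rose by a similar log2 amount in A673 and the UQCRFS1 knockout line from different starting levels. With DMSO its replicates were at 338 and 396 CPM in A673, 503 and 473 in the MRPL45 knockout line, 125 and 115 in the CYC1 knockout clone and 156 and 171 in the UQCRFS1 knockout line. With SP-2509 they were at 1671 and 1662 CPM in A673, 764 and 757 in the MRPL45 knockout line, 424 and 468 in the CYC1 knockout clone and 744 and 777 in the UQCRFS1 knockout line. No line had overlapping replicates between treatments, and A673 with SP-2509 stood above every other group. The log2 fold changes with SP-2509 were 2.18 ± 0.08 in A673, 2.22 ± 0.08 in the UQCRFS1 knockout line, 1.89 ± 0.08 in the CYC1 knockout clone and 0.64 ± 0.07 in the MRPL45 knockout line, with adjusted p of 1.41e-17, 1.42e-17, 5.33e-15 and 9.17e-07. With DMSO both complex III knockout lines lay below A673, by -1.61 ± 0.07 (CYC1) and -1.17 ± 0.07 (UQCRFS1), and they also lay below it with SP-2509, by -1.90 ± 0.07 and -1.13 ± 0.07.

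SPARC, a collagen-binding matrix protein also called osteonectin, differed more between lines than between treatments. In the DMSO libraries SPARC stood at 388 and 408 CPM in A673, 870.0 and 892 in the MRPL45 knockout line, 484 and 476 in the CYC1 knockout clone and 271 and 291 in the UQCRFS1 knockout line. The SP-2509 libraries stood at 393 and 396 CPM in A673, 884 and 951 in the MRPL45 knockout line, 366 and 370.3 in the CYC1 knockout clone and 264 and 248 in the UQCRFS1 knockout line. In A673 and the MRPL45 knockout line the treated and control replicates overlapped, while in both complex III knockout lines the treated ones were lower. The log2 fold change with SP-2509 was -0.01 ± 0.06 in A673 (adjusted p = 0.865), 0.06 ± 0.06 in the MRPL45 knockout line (0.576), -0.13 ± 0.06 in the UQCRFS1 knockout line (0.0602) and -0.38 ± 0.06 in the CYC1 knockout line (1.59e-05). SPARC was called lower in A673 and the UQCRFS1 knockout line, at -0.20 and -0.27, with upper-quartile scaling (adjusted p = 0.00244 and 9.98e-05), which shifted the all-gene median by -0.182 and -0.136. The same values were called under the stricter filter of at least 5 CPM in 2 libraries (0.00124 and 8.01e-05). There the median over the genes that this filter kept moved by 0.005 and -0.013. As that is another set of genes, the move does not measure the change in scaling. TMM scaling was computed anew on the kept genes while the counts of SPARC stayed the same, so its fold change moved with the scaling. The members' median in A673 was 1.58 under both settings, against 1.76 in the main fit. For UQCRFS1 knockout the DESeq2 Wald test also called SPARC (-0.14, adjusted p = 0.0389). So did fits with only the groups compared in the fit (-0.18, adjusted p = 0.0277) and without replicate 1 of its DMSO pair (-0.18, 0.0361). Against A673 with DMSO, SPARC was higher in the MRPL45 (1.15 ± 0.06) and CYC1 (0.27 ± 0.06) knockout lines and lower in the UQCRFS1 knockout line (-0.50 ± 0.06).

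CD44, a cell surface receptor for hyaluronan, gave the widest span of levels among the members. Under DMSO its replicates were at 0.43 and 0.49 CPM in A673, 99.0 and 92.9 in the MRPL45 knockout line, 0.58 and 0.50 in the CYC1 knockout clone and 0.08 and 0.16 in the UQCRFS1 knockout line, where the last pair rests on 4 and 8 counts. Under SP-2509 the values were 20.1 and 18.3 CPM in A673, 153 and 161 in the MRPL45 knockout line, 2.89 and 3.69 in the CYC1 knockout clone and 1.71 and 1.39 in the UQCRFS1 knockout line. The MRPL45 knockout line with DMSO thus held more CD44 RNA than any group of the other lines with SP-2509, and all 8 groups were free of overlap with their neighbours in the order of levels. The log2 fold change with SP-2509 was 5.38 ± 0.15 in A673 (adjusted p = 1.8e-19), 3.67 ± 0.28 in the UQCRFS1 knockout line (3.03e-11), 2.60 ± 0.18 in the CYC1 knockout clone (3.68e-11) and 0.71 ± 0.08 in the MRPL45 knockout line (3.12e-07). With DMSO the MRPL45 knockout line lay 7.70 ± 0.13 above A673 (adjusted p = 5.54e-23), a 209-fold difference. The CYC1 knockout line did not pass the test against A673 with DMSO (0.24 ± 0.27, adjusted p = 0.588), whereas with SP-2509 it lay at -2.54 ± 0.10 and the UQCRFS1 knockout line at -3.62 ± 0.11.

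TGFBR2, the type II receptor kinase that binds TGF-beta and activates the type I receptor, changed little with SP-2509. The DMSO libraries held TGFBR2 at 45.3 and 51.8 CPM in A673, 74.2 and 72.4 in the MRPL45 knockout line, 65.3 and 62.8 in the CYC1 knockout clone and 44.8 and 47.4 in the UQCRFS1 knockout line. After the inhibitor it was at 55.7 and 54.4 CPM in A673, 79.6 and 82.8 in the MRPL45 knockout line, 55.7 and 58.1 in the CYC1 knockout clone and 60.2 and 54.5 in the UQCRFS1 knockout line. Its whole range of group means was 1.8-fold, and the largest ratio between replicates was 1.14. The log2 fold change with SP-2509 was 0.32 ± 0.07 in the UQCRFS1 knockout line (adjusted p = 0.000238) and 0.15 ± 0.07 in the MRPL45 knockout line (0.128). The calls in the other lines were weak: 0.18 ± 0.07 in A673 (0.0217) became 0.04 without replicate 1 of A673 with DMSO, 0.12 and 0.16 without replicate 1 or 2 of A673 with SP-2509, 0.00079 with upper-quartile scaling, -0.0043 under the stricter filter and 0.13 with only the groups compared in the fit, none of them called. The fall in the CYC1 knockout line, -0.17 ± 0.07 (0.0487), lost its call without any single library of that line, at -0.13 to -0.23. With DMSO, TGFBR2 was higher than in A673 in the MRPL45 (0.60 ± 0.07) and CYC1 (0.40 ± 0.07) knockout lines.

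DKK1, a secreted inhibitor that keeps Wnt ligands from using the co-receptors LRP5 and LRP6, was at very different levels in the 4 lines. Under DMSO the replicates of DKK1 were at 0.84 and 0.69 CPM in A673, 0.29 and 0.20 in the MRPL45 knockout line (15 and 6 counts), 7.82 and 6.64 in the CYC1 knockout clone and 0.51 and 0.84 in the UQCRFS1 knockout line. Treated replicates were at 24.0 and 24.1 CPM in A673, 0.49 and 0.35 in the MRPL45 knockout line, 10.0 and 10.4 in the CYC1 knockout clone and 21.3 and 17.5 in the UQCRFS1 knockout line. A673 and the UQCRFS1 knockout line went from under 1 CPM to a mean of 24.1 and 19.4 CPM, the CYC1 knockout line already had a mean of 7.23 CPM with DMSO, and the MRPL45 knockout line stayed under 1 CPM. The log2 fold change with SP-2509 was 4.96 ± 0.17 in A673 (adjusted p = 1.07e-17), 4.83 ± 0.17 in the UQCRFS1 knockout line (1.91e-17) and 0.50 ± 0.13 in the CYC1 knockout line (0.00364, but 0.38 with an adjusted p of 0.0848 without replicate 2 of that line with DMSO). For DKK1 in the MRPL45 knockout line it was 0.65 ± 0.36 and did not pass (0.291); at these counts a change of that size was not detectable. Against A673 with DMSO, DKK1 was higher in the CYC1 knockout line (3.22 ± 0.18) and lower in the MRPL45 knockout line (-1.60 ± 0.30), and with SP-2509 the MRPL45 knockout line lay at -5.90 ± 0.19.

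PHLDA1, a pleckstrin homology-like domain protein whose gene responds to growth factor signals, rose with SP-2509 in all 4 lines. In the solvent control PHLDA1 replicates were at 4.0 and 3.92 CPM in A673, 22.8 and 22.5 in the MRPL45 knockout line, 16.6 and 17.3 in the CYC1 knockout clone and 2.75 and 3.33 in the UQCRFS1 knockout line. With SP-2509 both replicates of A673 were at 62.2 CPM, and the others were at 34.1 and 37.8 in the MRPL45 knockout line, 31.9 and 37.1 in the CYC1 knockout clone and 38.1 and 37.1 in the UQCRFS1 knockout line. With SP-2509 the MRPL45 knockout line overlapped with both other knockout lines, while the CYC1 knockout replicates lay just below those of the UQCRFS1 knockout line. The log2 fold changes with SP-2509 were 3.97 ± 0.09 in A673, 3.63 ± 0.09 in the UQCRFS1 knockout line, 1.03 ± 0.08 in the CYC1 knockout clone and 0.67 ± 0.08 in the MRPL45 knockout line, with adjusted p of 2.21e-20, 1.59e-19, 3.27e-10 and 1.47e-06. With DMSO the MRPL45 and CYC1 knockout lines were 2.52 ± 0.10 and 2.10 ± 0.10 above A673. The UQCRFS1 knockout line was at -0.38 ± 0.11 (adjusted p = 0.0117), a call lost without replicate 1 of A673 with DMSO (-0.38, adjusted p = 0.0639) and without replicate 1 of its own DMSO pair (-0.25, adjusted p = 0.191).

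ANXA1, a calcium-dependent phospholipid-binding protein, was among the most abundant members and rose in all 4 lines. The solvent controls held ANXA1 at 287 and 256 CPM in A673, 462 and 538 in the MRPL45 knockout line, 396 and 384 in the CYC1 knockout clone and both at 329 in the UQCRFS1 knockout line. Treated libraries held 682 and 695 CPM in A673, 619 and 594 in the MRPL45 knockout line, 698 and 646 in the CYC1 knockout clone and 859 and 735 in the UQCRFS1 knockout line. With DMSO all 3 knockout lines were above A673 without overlap, and with SP-2509 the lines lay closer together. The log2 fold changes with SP-2509 were 1.34 ± 0.08 in A673, 1.28 ± 0.08 in the UQCRFS1 knockout line, 0.78 ± 0.08 in the CYC1 knockout clone and 0.28 ± 0.08 in the MRPL45 knockout line, with adjusted p of 5.28e-13, 1.55e-12, 3.09e-08 and 0.0127. The last of these was 0.17 and not called without replicate 1 of the MRPL45 knockout line with DMSO, and 0.26 and not called without replicate 1 of that line with SP-2509. Against A673 with DMSO, ANXA1 was higher by 0.88 ± 0.08 in the MRPL45 knockout line, 0.52 ± 0.08 for CYC1 knockout and 0.28 ± 0.08 for UQCRFS1 knockout, the last being 0.20 and not called without replicate 2 of A673 with DMSO.

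ZYX encodes zyxin, a LIM-domain protein of focal adhesions and actin stress fibres. Its DMSO replicates were at 97.3 and 99.1 CPM in A673, 211 and 186 in the MRPL45 knockout line, 142 and 141 in the CYC1 knockout clone and 88.2 and 97.5 in the UQCRFS1 knockout line. After SP-2509 its levels were 201 and 187 CPM in A673, 257 and 246 in the MRPL45 knockout line, 167 and 177 in the CYC1 knockout clone and 174 and 177 in the UQCRFS1 knockout line. Every line was higher with SP-2509 without overlap, and the MRPL45 knockout line with DMSO already overlapped with A673 with SP-2509. The log2 fold changes with SP-2509 were 0.98 ± 0.07 in A673, 0.92 ± 0.07 in the UQCRFS1 knockout line, 0.34 ± 0.07 in the MRPL45 knockout line and 0.28 ± 0.07 in the CYC1 knockout line, with adjusted p of 3.93e-12, 1.46e-11, 0.000564 and 0.00154. The last was 0.21 (adjusted p = 0.0616) without replicate 2 of the CYC1 knockout line with SP-2509. With DMSO the MRPL45 and CYC1 knockout lines were above A673 by 1.01 ± 0.07 and 0.53 ± 0.07.

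FOXO1, a forkhead transcription factor kept out of the nucleus by AKT, separated the MRPL45 knockout line from the rest. FOXO1 replicates under DMSO were at 7.56 and 8.37 CPM in A673, 26.4 and 25.7 in the MRPL45 knockout line, 8.04 and 8.55 in the CYC1 knockout clone and 8.65 and 9.19 in the UQCRFS1 knockout line. SP-2509 libraries of the same lines were at 10.6 and 10.0 CPM in A673, 25.6 and 26.4 in the MRPL45 knockout line, both at 7.89 in the CYC1 knockout clone and 8.37 and 7.86 in the UQCRFS1 knockout line. The groups of the CYC1 and UQCRFS1 knockout lines and A673 with DMSO all lay between 7.56 and 9.19 CPM. With SP-2509 the log2 fold change in A673 was called, 0.37 ± 0.09 (adjusted p = 0.000674), and it was 0.25 and not called (0.0532) without replicate 1 of A673 with DMSO. The values in the MRPL45, CYC1 and UQCRFS1 knockout lines were -0.0024 ± 0.08, -0.07 ± 0.09 and -0.14 ± 0.09, with adjusted p of 0.992, 0.6 and 0.195. The value of the UQCRFS1 knockout line was -0.27 and called lower both with upper-quartile scaling (adjusted p = 0.00718) and under the stricter filter of at least 5 CPM in 2 libraries (0.00336). Against A673, the MRPL45 knockout line was higher by 1.71 ± 0.09 with DMSO and 1.33 ± 0.08 with SP-2509.

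Set side by side, the members' median response to SP-2509 was large in A673 and the UQCRFS1 knockout line, smaller in the CYC1 knockout line and smallest in the MRPL45 knockout line. Single members departed from this order: ZYX, DKK1, TGFBR2, SPARC and FOXO1 had a lower log2 fold change in the CYC1 than in the MRPL45 knockout line. In A673, 9 of the 10 genes were called higher and 0 lower. In this comparison 58% of all tested genes were called in either direction and 31.6% were called higher. At least 2-fold rises were found for 6 members. Of all tested genes, 12.7% lay above ZYX, whose log2 fold change was 0.98. The members' median log2 fold change was 1.76 against -0.026 for all tested genes. Because the members were chosen with earlier results of these data known, such contrasts with all genes describe the members and do not test them as a set. In the UQCRFS1 knockout line 8 were called higher and 0 lower, with 54.7% of all genes called (29.6% higher), and the medians were 1.75 and 0.000. In the CYC1 knockout line 7 were called higher and 2, TGFBR2 and SPARC, lower, with 33.4% of all genes called (18.7% higher and 14.7% lower), and the members' median was 0.64. The MRPL45 knockout line had 6 called higher and 0 lower, with 18.5% of all genes called (10.4% higher and 8.09% lower), and the members' median was 0.33. None reached 2-fold there. CD44 was highest, at 0.71, and 4.77% of all tested genes lay above it. Among all tested genes, 0.411% lay above CD44, 0.55% above DKK1 and 1.1% above PHLDA1 in the ranking of log2 fold changes in A673. In the authors' deposited table for A673 the log2 fold changes were 5.41 for CD44, 4.99 for DKK1 and 3.99 for PHLDA1.

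**Figure D2:**
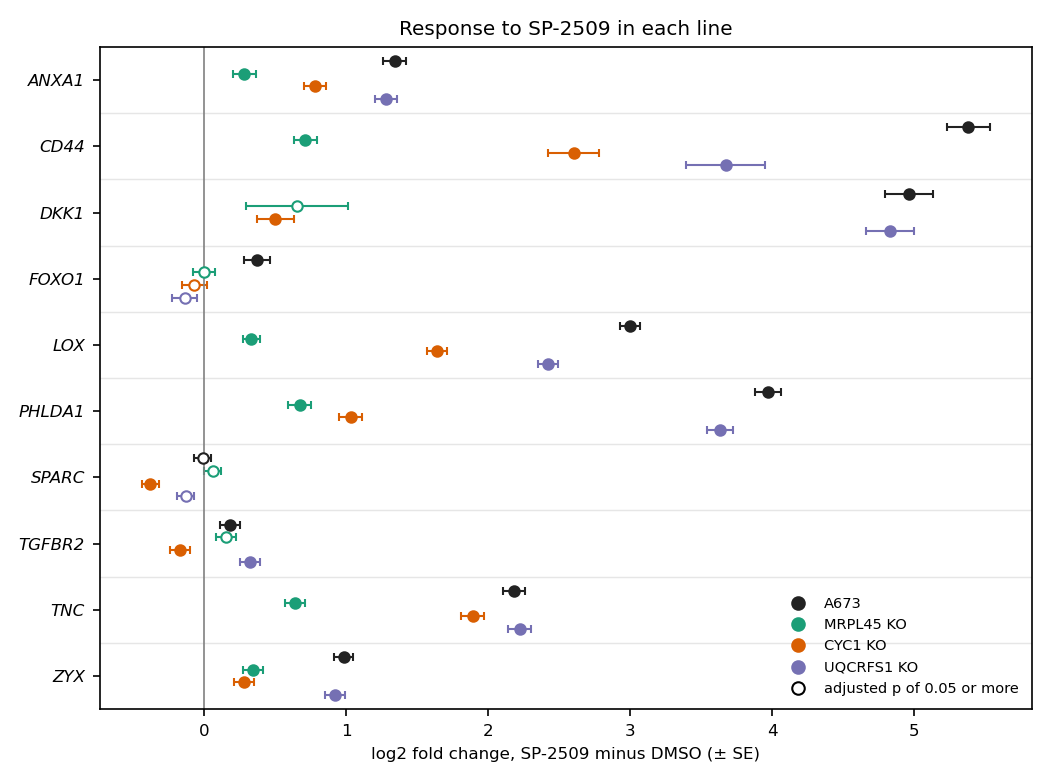
Log2 fold change of each gene for SP-2509 over DMSO, by line, with bars of 1 SE and open symbols where the adjusted p is 0.05 or more. For LOX, PHLDA1, CD44, ANXA1, DKK1, TNC and ZYX the points of A673 and the UQCRFS1 knockout line lie to the right, while those of the MRPL45 knockout line lie at 0.71 or less for every gene.

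The comparison of each knockout line with A673 under DMSO asks how the lines differed before the inhibitor. In the MRPL45 knockout line all 10 genes were called, 9 higher and DKK1 lower, in a comparison with 57.8% of all genes called (28.9% higher and 29% lower); the members' median was 1.08 and that of all genes 0.010. The rises ranged from 0.41 ± 0.07 for TNC to 7.70 ± 0.13 for CD44. That of TNC was 0.26, still called, without replicate 1 of A673 with DMSO. In the CYC1 knockout line 7 were called, 6 higher and TNC lower, with 37.6% of all genes called (21.4% higher), and the members' median was 0.34. Here DKK1 (3.22 ± 0.18) and PHLDA1 (2.10 ± 0.10) stood out, while LOX (-0.08 ± 0.07), CD44 and FOXO1 (0.06 ± 0.09) did not pass. In the UQCRFS1 knockout line 6 were called, LOX (0.30 ± 0.07) and ANXA1 higher and PHLDA1, CD44 (-1.91 ± 0.38), TNC and SPARC lower, with 30.8% of all genes called (15.8% higher and 15% lower), and the members' median was -0.14. The same 2 libraries of A673 serve as control in all 3 comparisons.

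**Figure D3:**
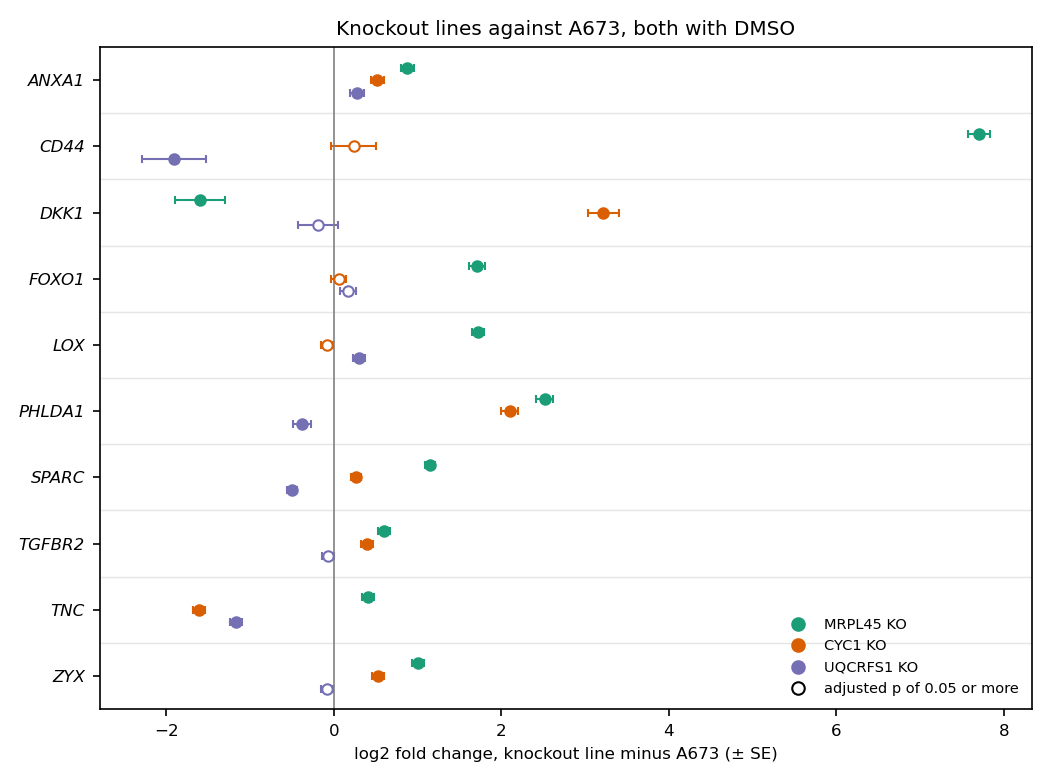
Log2 fold change of each gene in each knockout line against A673, both with DMSO, with bars of 1 SE and open symbols where the adjusted p is 0.05 or more. The MRPL45 knockout line lies above A673 for 9 genes, with CD44 at 7.70, and below it for DKK1, and the CYC1 knockout line has DKK1 at 3.22.

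With SP-2509 in both lines, more members were called lower than higher for CYC1 and UQCRFS1 knockout, and as many lower as higher for MRPL45 knockout. For CYC1 knockout 7 genes were called, all lower, with 47.6% of all genes called (22% higher and 25.5% lower), and the members' median was -0.62. The largest were CD44 (-2.54 ± 0.10), TNC (-1.90 ± 0.07) and LOX (-1.43 ± 0.06). The smallest, ZYX (-0.17 ± 0.07, adjusted p = 0.0314), was -0.12 and not called without replicate 1 of A673 with SP-2509, and -0.13 and not called without replicate 1 of the CYC1 knockout line with SP-2509. ZYX was also not called with upper-quartile scaling (-0.11, adjusted p = 0.158) or under the stricter filter (-0.10, 0.175). SPARC, uncalled in the main fit, was called at -0.14 by the DESeq2 Wald test (0.0461). In the UQCRFS1 knockout line 7 were called lower and ANXA1 higher, with 38.2% of all genes called (21.7% lower), and the members' median was -0.33. The calls of ANXA1 (0.21 ± 0.08, adjusted p = 0.0325) and DKK1 (-0.31 ± 0.12, adjusted p = 0.0404) were lost without either of the SP-2509 libraries of A673, at 0.20 and 0.22 for ANXA1 and -0.32 and -0.31 for DKK1. They were also lost without replicate 1 of the UQCRFS1 knockout line with SP-2509 for ANXA1 (0.09) and without replicate 2 for DKK1 (-0.18). With DESeq2 size factors and the DESeq2 Wald test ANXA1 was 0.19 and not called (adjusted p = 0.0721 and 0.0565). DKK1 was not called with upper-quartile scaling (-0.27, 0.0768), under the stricter filter (-0.26, 0.077) or by the Wald test (-0.34, 0.0562). ZYX, uncalled in the main fit (-0.14 ± 0.07), was -0.17 and called with DESeq2 size factors and the Wald test (0.0473 and 0.0349). In the MRPL45 knockout line all 10 were called, 5 higher (CD44, FOXO1, SPARC, TGFBR2 and ZYX) and 5 lower (DKK1, TNC, LOX, PHLDA1 and ANXA1), with 59.3% of all genes called (27.9% higher and 31.5% lower), and the members' median was 0.10. ANXA1 (-0.18 ± 0.08, adjusted p = 0.044) lost its call without any 1 of the 4 libraries compared, at -0.15 to -0.22. It stood at 0.05 with upper-quartile scaling, which shifted the all-gene median by 0.233, and at 0.04 under the stricter filter. The median over the genes that this filter kept moved by -0.045. The members' median was 0.32 there and 0.33 with upper-quartile scaling.

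The difference in response, the log2 fold change with SP-2509 in a knockout line minus that in A673, was tested directly in the same fit. In the MRPL45 knockout line 8 of the 10 responses were smaller than in A673 and 0 larger, with 38.7% of all genes called (24.2% lower), and the median difference of the members was -1.30 against -0.033 for all genes. The largest differences were -4.66 ± 0.18 for CD44 (adjusted p = 1.24e-15), -4.30 ± 0.45 for DKK1 (4.14e-08), -3.30 ± 0.12 for PHLDA1 (1.07e-15), -2.67 ± 0.09 for LOX (3.49e-16) and -1.54 ± 0.10 for TNC (1.83e-11). TGFBR2 (-0.03 ± 0.09) and SPARC (0.07 ± 0.08) did not pass, though SPARC was called at 0.23 with upper-quartile scaling (adjusted p = 0.0165), which shifted the all-gene median by 0.152. Under the stricter filter SPARC was called at 0.24 (adjusted p = 0.00705). The median over the genes that this filter kept moved by 0.047. The members' median was -1.14 there and -1.15 with upper-quartile scaling. In the CYC1 knockout line all 10 responses were called lower than in A673 in the main fit, with 33.9% of all genes called (21% lower), and the members' median was -0.63. DKK1 (-4.46 ± 0.22, adjusted p = 1.28e-13), PHLDA1 (-2.95 ± 0.12, 9.4e-15), CD44 (-2.78 ± 0.30, 9.25e-08) and LOX (-1.35 ± 0.09, 9e-11) differed most. In the UQCRFS1 knockout line 3 were lower, LOX (-0.58 ± 0.09, adjusted p = 0.00015), CD44 (-1.71 ± 0.48, 0.0241) and FOXO1 (-0.51 ± 0.12, 0.00698), with 10.7% of all genes called (3.02% higher and 7.68% lower), and the members' median was -0.12. The other 7 did not pass, among them DKK1 (-0.12 ± 0.27) and TNC (0.03 ± 0.10).

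Several of the smaller response differences depended on single libraries, the scaling, the filter or the groups in the fit. The count of 3 in the UQCRFS1 knockout line fell to 1 without replicate 1 of A673 with DMSO and to 1 without replicate 1 of A673 with SP-2509. CD44 in that line was -1.61 and -1.63 without these libraries, -1.10 without replicate 2 of the UQCRFS1 knockout line with DMSO and -1.57 without replicate 2 of that line with SP-2509, none of them called. FOXO1 in that line was -0.43 and -0.46 without the same libraries of A673 and not called, while PHLDA1 (-0.34 ± 0.14) became called, at -0.48, without replicate 1 of that line with DMSO. In the CYC1 knockout line TNC (-0.29 ± 0.10, adjusted p = 0.0307) was not called without replicate 1 of A673 with DMSO (-0.15), without either SP-2509 library of A673 (-0.27 and -0.28), or without replicate 1 of the CYC1 knockout line with DMSO (-0.22) or SP-2509 (-0.20). FOXO1 (-0.45 ± 0.12) was -0.35 without replicate 1 of A673 with DMSO and -0.39 without replicate 1 of A673 with SP-2509, and TGFBR2 (-0.35 ± 0.09) was -0.23 without the former, all not called. With upper-quartile scaling TNC, FOXO1 and TGFBR2 in the CYC1 knockout line were -0.14, -0.29 and -0.20 and not called (adjusted p = 0.301, 0.0575 and 0.0726). TNC was also not called under the stricter filter (-0.15, adjusted p = 0.223) or with only the groups compared in the fit (-0.25, 0.095). In the MRPL45 knockout line FOXO1 (-0.38 ± 0.12) was not called without replicate 1 of A673 with DMSO (-0.25) or SP-2509 (-0.29), without replicate 2 of the MRPL45 knockout line with DMSO (-0.33) or without its replicate 1 with SP-2509 (-0.34). FOXO1 there was also not called with upper-quartile scaling (-0.22, adjusted p = 0.124), under the stricter filter (-0.21, 0.0816) or with no filter (-0.36, 0.0521).

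**Figure D4:**
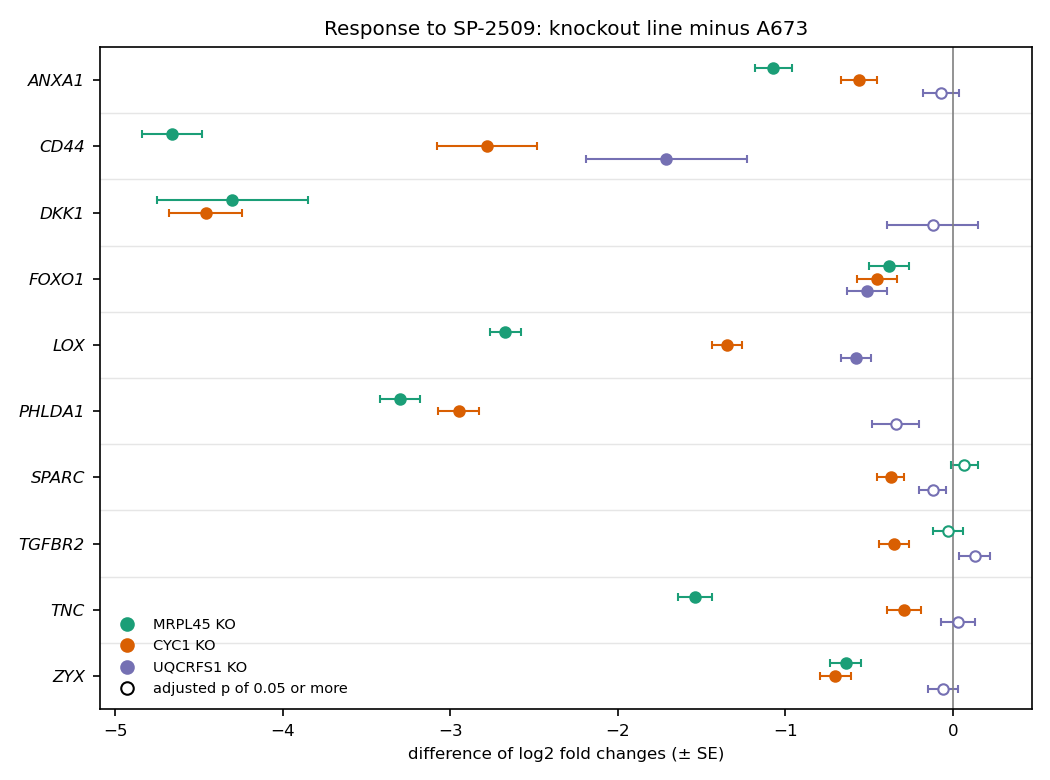
Response to SP-2509 in each knockout line minus the response in A673, as a difference of log2 fold changes with bars of 1 SE; open symbols mark an adjusted p of 0.05 or more. Points of the MRPL45 and CYC1 knockout lines reach below -2.5 for PHLDA1, CD44 and DKK1, and those of the UQCRFS1 knockout line lie closer to 0, with CD44 (-1.71), LOX (-0.58) and FOXO1 (-0.51) called.

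Other genes reported as repressed by the fusion moved in both directions with SP-2509 in A673. Of 20 such genes, 13 were called higher and 4 lower, with a median of 0.59, where 31.6% of all tested genes were called higher and 26.4% lower. IGFBP3, which binds insulin-like growth factors, rose by 6.12 ± 0.21 and THBS2, a matrix thrombospondin, by 4.48 ± 0.20, while the fibrillar collagen genes COL1A2 and COL3A1 were at -2.10 ± 0.09 and -1.0 ± 0.09. Of the same 20 genes, 12 were higher and 5 lower with SP-2509 in the UQCRFS1 knockout line, 6 and 6 in the CYC1 knockout clone and 6 and 1 in the MRPL45 knockout line. Over all tested genes the shares called higher and lower were 29.6% and 25.1%, 18.7% and 14.7%, and 10.4% and 8.09% in these lines. With DMSO, 14 were higher and 0 lower in the MRPL45 knockout line than in A673, 12 and 3 in the CYC1 knockout clone, and 4 and 10 in the UQCRFS1 knockout line, against 28.9% and 29%, 21.4% and 16.2%, and 15.8% and 15% of all tested genes. Genes reported as activated by the fusion also moved in both directions: of 25, 15 rose and 7 fell with SP-2509 in A673, with a median of 0.43. Among them CCK, a gut peptide hormone gene, and BCL11B, a zinc finger transcription factor, rose by 1.17 ± 0.07 and 1.12 ± 0.07, and PPP1R1A, a phosphatase inhibitor, and UGT3A2 were at -1.17 ± 0.07 and -0.98 ± 0.06. With DMSO, 8 of the 25 were higher and 10 lower in the MRPL45 knockout line than in A673, 14 and 8 in the CYC1 knockout clone, and 11 and 5 in the UQCRFS1 knockout line.

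Genes that act with the members were counted in the same way in A673 with SP-2509, where 31.6% of all tested genes were called higher and 26.4% lower. Of 15 TGF-beta pathway genes 7 rose and 7 fell: the ligand TGFB2 rose by 4.25 ± 0.11 and the SMAD co-repressor SKIL by 1.19 ± 0.06, whereas the inhibitory SMAD6 was at -0.85 ± 0.06 and the co-receptor TGFBR3 at -0.71 ± 0.10. Of 13 tested Wnt and Dickkopf pathway genes 4 rose and 5 fell, with the secreted Wnt antagonist FRZB at 1.32 ± 0.11, the transcription factor LEF1 at 1.04 ± 0.11, the DKK1 receptor KREMEN1 at -2.15 ± 0.09 and LRP5 at -0.67 ± 0.07. Of 15 genes of zyxin partners and focal adhesions 13 rose and 2 fell, led by the tropomyosin gene TPM1 (1.91 ± 0.07) and the zyxin relative TRIP6 (1.29 ± 0.08), with EVL at -0.82 ± 0.07 and VASP, which zyxin recruits to actin, at -0.25 ± 0.06. Of 14 FOXO and AKT pathway genes 11 rose and 3 fell, with KLHL24 at 2.40 ± 0.07, the insulin receptor substrate IRS1 at 1.18 ± 0.06, FOXO6 at -1.46 ± 0.19 and AKT1 at -0.96 ± 0.08. The medians of these 4 lists were -0.21, -0.01, 0.69 and 0.70, against -0.026 for all tested genes.

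Smaller lists held the closest relatives and partners, counted in the same comparison, with 31.6% of all tested genes called higher and 26.4% lower. Of 10 matched relatives of LOX and SPARC 2 rose and 2 fell, with FSTL1, a SPARC family member, at 1.76 ± 0.06, SMOC2 at 0.42 ± 0.15 and LOXL1, a LOX-like amine oxidase, at -2.30 ± 0.08. With a filter of 5 CPM in 2 libraries 2 of these relatives were called, but how many of the 10 were still tested there was not counted. Of 11 tested CD44 and tenascin partners 5 rose and 1 fell. The rises that reached 5 CPM were led by the proteoglycan syndecan-4, gene SDC4 (1.92 ± 0.06), and the membrane-actin linker ezrin, gene EZR (1.20 ± 0.07). The 5 include ITGB3, which went from 0.011 to 0.111 CPM. Under the stricter filter 3 partners were called, and how many were still tested there was likewise not counted. Of 8 tested annexins, annexin partners and receptors 4 rose and 3 fell, with S100A10 at 1.05 ± 0.07, ANXA5 at 0.57 ± 0.06, ANXA6 at -1.66 ± 0.06 and ANXA7 at -1.28 ± 0.07. The 4 include ANXA3, which went from 0.011 to 0.108 CPM. The medians of the lists of relatives, partners and annexins were -0.11, 0.53 and 0.27, against -0.026 for all tested genes. Of the 8 Ewing sarcoma markers 5 rose and 3 fell, with CCK as above, PAX7 at 0.73 ± 0.06, LIPI at -0.42 ± 0.09 and CD99 at -0.36 ± 0.06. All of these markers but CD99 were also among the fusion-activated genes counted above. Of the markers of other cell types, 4 were tested and 0 were called.

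The members did not share 1 pattern over the 8 groups. Across the 8 group means of log2 CPM, Pearson's r between members was highest for PHLDA1 with ANXA1 (0.92), followed by LOX with ANXA1 and PHLDA1 with ZYX (0.91 each), and lowest for FOXO1 with DKK1 (-0.64). FOXO1 and SPARC, both highest in the MRPL45 knockout line, had an r of 0.90. Among 10445 other genes that averaged 5 CPM or more, the gene most like each member was NCAM2 for LOX (r = 0.997), PRPF18 for TGFBR2 (0.981), IER3 for PHLDA1 (0.990), PIP4K2A for CD44 (0.993), BMP1 for FOXO1 (0.995), TMEM87A for ANXA1 (0.995), SUV39H1 for DKK1 (0.987), BRCA2 for TNC (0.981), MYH9 for ZYX (0.990) and COL1A1 for SPARC (0.992). These are the highest of many values over 8 points that share 4 lines and a common treatment, and they describe likeness of level only.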

How the data were processed

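The deposited tables, 10 in all with 39249 genes each, hold raw counts per gene and library, per the file headers. A second set of columns, deposited with a norm prefix, is a score: the count over a size factor, rounded, which was only checked against the counts. From the deposited comparisons, the authors' log2 values appear in 1 sentence that names their table, and their p-values were not used. The submitters' processing notes name DESeq2, STAR 2.5.2b, Trim Galore, MultiQC and FastQC, and the build hg19, with no roles. Which program, annotation and strand setting made the counts is not given in the sources used here, so reads of overlapping antisense genes cannot be told apart.

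The 16 libraries (24873597 to 56171036 counts) were joined by Ensembl identifier and fitted in 1 edgeR 4.0.16 quasi-likelihood model in R 4.3.3, with 8 group means, TMM scaling and the filterByExpr filter. It left 21633 genes, 8 residual degrees of freedom and a biological coefficient of variation of 0.0716. The F-test is two-sided, with Benjamini-Hochberg adjustment over all tested genes in each of 13 comparisons. The SE is the absolute log2 fold change over the square root of F. CPM are scaled by TMM; exon lengths came from GENCODE and served only for levels per kb. The fit was also run on simulated counts drawn with the same coefficient of variation. These held no shared deviation of same-numbered replicates, so that run does not cover this feature of the data. Rows without a symbol held 2.405% to 8.588% of counts and stayed in the fit.

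The members and gene lists were chosen with earlier results of these data known. The other genes named are, by rule, up to 2 called rising and 2 called falling genes of each list in A673 with SP-2509 that reach 5 CPM, and for each member the gene with the highest Pearson r over group means of log2 CPM (prior count 2). The alternatives were other scaling (DESeq2 1.42.0 size factors, upper quartile), no filter and a stricter one, the DESeq2 Wald test, only the groups compared, a replicate block, and leaving out each library.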

Additional observations from a re-analysis of the deposited data

Results flagged for a closer look

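The tested difference between the response to SP-2509 in a knockout line and in A673 singled out the values below, each a difference of log2 fold changes from edgeR's quasi-likelihood test. In the MRPL45 knockout line these were LOX (-2.67), PHLDA1 (-3.30), CD44 (-4.66), FOXO1 (-0.38), ANXA1 (-1.07), DKK1 (-4.30), TNC (-1.54) and ZYX (-0.64). In the CYC1 knockout line they were LOX (-1.35), TGFBR2 (-0.35), PHLDA1 (-2.95), CD44 (-2.78), FOXO1 (-0.45), ANXA1 (-0.56), DKK1 (-4.46), TNC (-0.29), ZYX (-0.70) and SPARC (-0.37). In the UQCRFS1 knockout line they were LOX (-0.58), CD44 (-1.71) and FOXO1 (-0.51). With DMSO, 7 of the 8 genes given for the MRPL45 knockout line were called above A673 there, and DKK1 was called below it (-1.60). With CYC1 knockout TGFBR2, PHLDA1, ANXA1, DKK1, ZYX and SPARC were called above A673 with DMSO and TNC below it (-1.61). LOX, CD44 and FOXO1 were not called there. With UQCRFS1 knockout LOX was called above (0.30) and CD44 below (-1.91), and FOXO1 was not called. Of all tested genes, 28.9% were called higher and 29% lower than in A673 with DMSO for MRPL45 knockout. The shares were 21.4% and 16.2% for CYC1 knockout and 15.8% and 15% for UQCRFS1 knockout. The DMSO libraries compared here also enter the response difference, so these values are not independent of it.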

How the results depend on the processing

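Of 130 log2 fold changes of the members over 13 comparisons, 101 were called; 83 kept direction and call under every alternative, 18 lost the call under some, none of these above 1.71 in size, and 11 uncalled values changed sign. The count of called members stayed within 1.5 times in every comparison and alternative, except the response difference of the UQCRFS1 knockout line, which ranged from 1 to 4 with 1 library left out. Upper-quartile scaling lowered the share of higher calls among all calls from 54.4% to 41.6% with SP-2509 in A673, from 54.1% to 43.6% in the UQCRFS1 knockout line and from 56.9% to 43.4% for the CYC1 knockout line with DMSO. It raised this share from 47.0% to 62.0% for the MRPL45 knockout line with SP-2509 and, for the response differences, from 37.5% to 52.9% (MRPL45), 37.8% to 57.0% (CYC1) and 28.3% to 40.2% (UQCRFS1); the stricter filter moved the last 3 to 50.2%, 50.6% and 41.7%.

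Values that changed sign were small. TGFBR2 with SP-2509 in A673 was -0.0043 under the stricter filter. FOXO1 with SP-2509 in the MRPL45 knockout line was 0.01 with DESeq2 size factors, no filter and the Wald test and -0.01 to 0.03 with 1 library left out. FOXO1 in the CYC1 knockout line with DMSO was -0.03 with upper-quartile scaling, -0.01 under the stricter filter and -0.03 to 0.13 with 1 library left out. ANXA1 with SP-2509 against A673 was 0.05 and 0.04 under these settings in the MRPL45 knockout line, and 0.02 and 0.04 in the CYC1 knockout line (-0.09 to 0.02 with 1 library left out). The response difference of TGFBR2 in the MRPL45 knockout line was 0.12 and 0.13 (-0.10 to 0.11). With 1 library left out, TGFBR2 in the UQCRFS1 knockout line ranged from -0.18 to 0.03 with DMSO and from -0.01 to 0.13 with SP-2509, and DKK1 with DMSO from -0.60 to 0.13. Response differences in that line ranged from -0.19 to 0.03 for ANXA1, -0.44 to 0.30 for DKK1, -0.09 to 0.15 for TNC and -0.14 to 0.04 for ZYX. The cause was not tested.

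For each gene, the deviation of a library from its group mean of log CPM was taken. Between groups, these deviations of same-numbered replicates correlated at 0.125 to 0.651 in all 28 pairs of groups, over 10597 genes. Same-numbered libraries thus tended to deviate in the same direction, but no label states a pairing. With a replicate block, all 130 member values kept direction and call, and the members called stayed at 9 for SP-2509 in A673. At 4 to 15 counts per library, CD44 and DKK1 limit what can be detected in the lowest groups.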

Other observations

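Other fusion-repressed genes also answered SP-2509 differently in the knockout lines. Of the 20 genes, 11 had a called negative difference from the A673 response with MRPL45 knockout and 4 a positive one; the counts were 14 and 4 with CYC1 knockout, and 6 and 1 with UQCRFS1 knockout. Their median differences were -0.47, -0.79 and -0.22. Of the 25 fusion-activated genes, 13 were lower and 6 higher with MRPL45 knockout, 11 and 4 with CYC1 knockout, and 6 and 3 with UQCRFS1 knockout, with medians of -0.30, -0.15 and -0.12. Of the 15 zyxin and focal adhesion genes, 13 were lower and 1 higher with MRPL45 knockout, 14 and 1 with CYC1 knockout, and 3 and 0 with UQCRFS1 knockout, with medians of -0.51, -0.52 and -0.12. The medians of the same differences over all genes tested were -0.033, 0.018 and -0.020. Of all genes tested, 24.2% were called lower and 14.5% higher with MRPL45 knockout, 21% and 12.8% with CYC1 knockout, and 7.68% and 3.02% with UQCRFS1 knockout. All these differences use the same A673 libraries.

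With DMSO, 6 of 7 lists of genes related to the members held more genes called higher than lower in the MRPL45 knockout line set against A673. In this comparison 57.8% of all genes were called (28.9% higher and 29% lower), and the median log2 difference was 0.010. Of 15 TGF-beta pathway genes 12 were called higher and 3 lower (median log2 difference 0.99), and of 15 zyxin and focal adhesion genes 12 and 1 (0.82). Of 11 tested CD44 and tenascin partners 8 were higher and 1 lower (0.71), of 10 tested relatives of LOX and SPARC 7 and 2 (1.63). Of 14 FOXO and AKT pathway genes 10 were higher and 0 lower (0.36), and of 8 tested annexins and their receptors 6 and 2 (1.32). The Wnt and DKK pathway was split almost evenly, with 5 of 13 tested genes higher and 6 lower (-0.09). In the order given, the 7 lists held 8, 9, 4, 3, 7, 4 and 2 genes called higher and 4, 2, 3, 2, 5, 2 and 4 called lower with CYC1 knockout. There 21.4% of all genes were called higher and 16.2% lower. With UQCRFS1 knockout they held 4, 3, 1, 1, 6, 3 and 3 called higher and 2, 1, 2, 3, 1, 0 and 5 called lower. There 15.8% of all genes were called higher and 15% lower.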
